A study of Mus musculus with 4 samples.

Results

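The genes described here are 10 Kruppel-like factors, Klf2, Klf3, Klf4, Klf5, Klf6, Klf7, Klf9, Klf10, Klf13 and Klf15, taken by symbol from a table of 24421 gene symbols. They were compared between DPPIV+ and DPPIV- fibro-adipogenic progenitors (FAPs), the stromal cells of skeletal muscle that can become fibroblasts or adipocytes. Both cell types were sorted from the same 2 wild-type mice, called mouse 1 and mouse 2 by ascending label number, as PI- CD31- CD45- Sca1+ cells, split by DPPIV, the surface peptidase encoded by Dpp4. Every library came from a mouse whose CSF1R had been inhibited for 3 weeks and that had then eaten a regular diet for 3 days, so no untreated FAPs were compared, and the labels give neither the age nor the sex of these mice. CSF1R is the receptor through which macrophages receive CSF1, and the series asks what the niche of the self-renewing resident macrophages of muscle is. The labels name the tibialis anterior as the source, whereas the protocols describe muscle of both hindlimbs.

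Kruppel-like factors are transcription factors with C2H2 zinc fingers at the carboxyl end that bind GC boxes and CACCC elements, the same kind of sites as the related Sp proteins. Outside the fingers the proteins differ, and they are commonly grouped by the partners they recruit: histone acetyltransferases (KLF1, KLF2, KLF4, KLF5, KLF6 and KLF7), the corepressor CtBP (KLF3, KLF8 and KLF12) or the corepressor Sin3a (KLF9, KLF10, KLF11, KLF13, KLF14 and KLF16). Several are known from adipocyte formation, where KLF5 acts as an activator of Pparg and KLF2 and KLF3 act against differentiation, and KLF2 and KLF4 are known from the response of blood vessels to flow.

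The libraries held between 18240110 and 20879405 reads counted on genes, and 3 reads, taken here as the limit of detection, corresponded to 0.143 to 0.167 CPM (reads of a gene scaled to the size of its library). Dpp4 itself was 10.7-fold higher in DPPIV+ FAPs (64.7 ± 35.4 CPM against 651 ± 108 CPM, SD, n = 2 mice), in the order of the sort. FAP markers were abundant in all libraries, with Pdgfra between 1159 and 1657 CPM and Ly6a, the gene of Sca1, between 962 and 1471 CPM. Of 8 FAP markers, 2 (Ly6a among them) were higher and 5 (Pdgfra among them) were lower in DPPIV+ FAPs. DESeq2 gave the same counts as edgeR, both described below. Markers of other cells were also read. Summed over 8 genes, macrophage and blood cell markers were 329 and 196 CPM in DPPIV- FAPs and 209 and 190 CPM in DPPIV+ FAPs. Of the 7 tested, 0 were higher and 3 were lower in DPPIV+ FAPs with edgeR, and 0 either way with DESeq2. Those 3 had log2 ratios in mouse 2 of -0.37 (Adgre1), -0.04 (Lyz2) and -0.0009 (Csf1r). Mural cell markers summed to 191 and 189 CPM in DPPIV- FAPs and to 88.5 and 104 CPM in DPPIV+ FAPs, with 7 of 8 lower. Blood endothelial markers summed to 265 and 192 CPM in DPPIV- FAPs and to 513 and 467 CPM in DPPIV+ FAPs. Tek, which encodes the angiopoietin receptor TIE2, carried that rise (168 ± 26.6 CPM against 447 ± 27.8 CPM), and without it the sums were 78.1 and 42.7 CPM in DPPIV- FAPs and 46.0 and 40.0 CPM in DPPIV+ FAPs. Of the 6 other endothelial markers tested, 4 were lower in DPPIV+ FAPs with edgeR and 0 with DESeq2. Those 4 had log2 ratios in mouse 2 of -0.34 (Vwf), -0.32 (Cdh5), -0.0005 (Pecam1) and 0.10 (Kdr). Of 6 tenocyte markers, 5 were higher and 1 was lower in DPPIV+ FAPs, and their sums were 1810 and 2411 CPM in DPPIV- FAPs and 1938 and 3835 CPM in DPPIV+ FAPs. Of the satellite cell markers, 2 of 7 reached the filter on low values and both were lower, while 1 of 6 tested glial markers was higher and 3 were lower. The mural marker Kcnj8 and the glial marker Ngfr, both called lower, reached the filter only through their DPPIV- libraries. The tenocyte marker Scx, called higher, reached it only through its DPPIV+ libraries. With DESeq2, 4 mural, 2 satellite cell and 2 glial markers were lower, and 5 tenocyte markers but 0 glial markers were higher. The shares over all genes tested were 15.9% higher and 17.2% lower with edgeR. The part of these other cells in the values below was not tested except where stated, and in bulk libraries fewer cells of a type cannot be told apart from less RNA per cell.

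Of the 10 genes, Klf4, Klf3 and Klf2 had the largest rises in DPPIV+ FAPs, and Klf5 fell furthest. The test was edgeR's quasi-likelihood test of cell type with mouse as a block, adjusted by Benjamini-Hochberg over the 11588 genes that reached 2 CPM in 2 or more libraries, and a gene was called at an adjusted p under 0.05. A gene has 1 residual degree of freedom in this fit, and its spread therefore comes from other genes of like abundance. All 10 genes reached the filter, Klf5 only through its DPPIV- libraries, and 4 were called higher and 2 lower in DPPIV+ FAPs. Over all genes tested, 15.9% were higher and 17.2% were lower, 33.0% in either direction. With DESeq2's Wald test, the study's tool, 3 of the 10 genes were higher and 1 was lower, against 16.6% of all genes in either direction. Without mouse in edgeR's model the counts were again 3 and 1, against 18.3% of all genes. The 4 called in all 3 fits were Klf2, Klf3, Klf4 and Klf5, whereas Klf6 and Klf9 were called in the first alone. The libraries of the cell types did not overlap for 7 of the 10 genes, 5 above and 2 below, as they did not for 56.3% of all genes. The median log2 fold change (DPPIV+ over DPPIV-) of the 10 genes was 0.15, against -0.0020 over all genes tested.

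**Figure D1:**
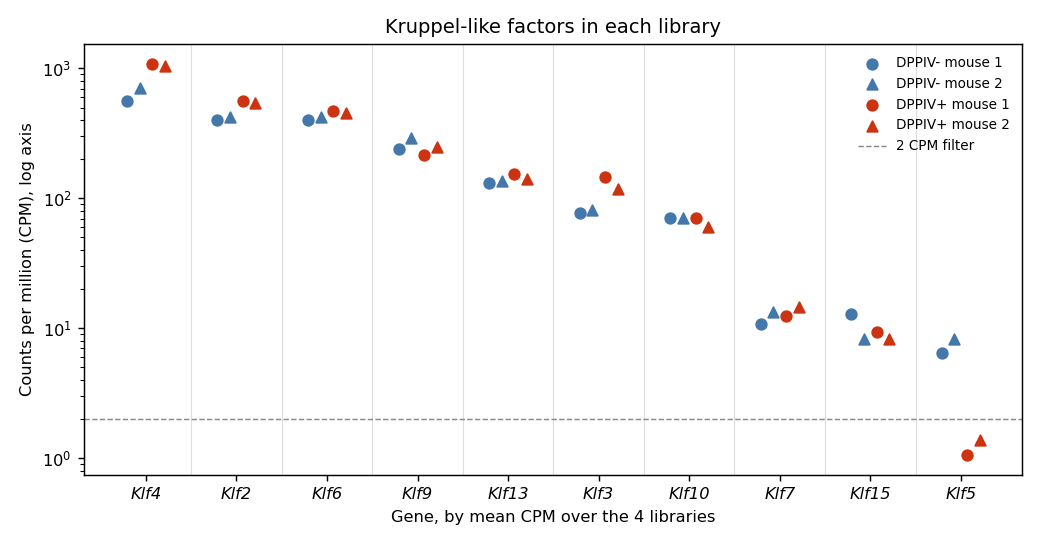
Each point is the CPM of 1 Kruppel-like factor (horizontal axis) in 1 library on a log axis, blue for DPPIV- and red for DPPIV+ FAPs, circles for mouse 1 and triangles for mouse 2, with the filter of 2 CPM as a dashed line. Both red points lie above both blue points for Klf4, Klf2, Klf6, Klf13 and Klf3, and the red points of Klf5, at 1.06 and 1.37 CPM, lie under the filter.

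Among the factors that bind acetyltransferases, Klf4 was the most abundant of the 10 in CPM. KLF4 is one of the factors used to reprogram somatic cells and is needed for the skin barrier and for monocyte differentiation. Klf4 had 560 CPM in mouse 1 and 708 CPM in mouse 2 in DPPIV- FAPs, and 1090 and 1047 CPM in DPPIV+ FAPs. Both DPPIV+ libraries lay above both DPPIV- libraries, and the DPPIV- libraries stood farther apart than the DPPIV+ libraries. The fitted change was 1.70-fold (log2 fold change 0.76, SE 0.07, edgeR adjusted p = 1.37e-25, DESeq2 adjusted p = 1.53e-11), with log2 ratios of 0.96 in mouse 1 and 0.56 in mouse 2. Klf4 lies on the minus strand of chromosome 4, from 55527143 to 55532466 (ENSMUSG00000003032.8, GENCODE M21 on GRCm38).

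Klf2 followed Klf4 with a smaller step. KLF2 is known for keeping endothelium and T cells quiescent and for holding back Pparg in preadipocytes. Klf2 had 403 and 426 CPM in the DPPIV- libraries of mouse 1 and mouse 2, and 562 and 546 CPM in the DPPIV+ libraries. The pairs of libraries were far closer within a cell type than between the cell types. The change was 1.34-fold (log2 fold change 0.42, SE 0.07, edgeR adjusted p = 9.19e-09, DESeq2 adjusted p = 4.87e-05), with log2 ratios of 0.48 and 0.36 in the mice. Klf2 lies on the plus strand of chromosome 8, from 72319033 to 72321656 (ENSMUSG00000055148.7). Endothelium and macrophages also use KLF2 or KLF4, and of their markers Tek was the only one called higher in DPPIV+ FAPs. Of 6 tenocyte markers, 5 were higher. The part of any of these cells in the levels of Klf2 and Klf4 was not tested.

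Klf5 went the other way. KLF5 is known from intestinal epithelium, from smooth muscle cells and from early adipogenesis, in which it is induced by C/EBP factors. Klf5 was counted 135 times in mouse 1 and 163 times in mouse 2 in DPPIV- FAPs (6.45 and 8.33 CPM), and 19 and 25 times in DPPIV+ FAPs (1.06 and 1.37 CPM). The groups were far apart, though the gene ranked at percentile 10.5 of the tested genes by mean CPM. The fitted level was 6.07-fold lower in DPPIV+ FAPs (log2 fold change -2.60, SE 0.26, edgeR adjusted p = 3.23e-22, DESeq2 adjusted p = 2.95e-08), with a log2 ratio of -2.60 in each mouse. With no filter on low values the edgeR adjusted p was 6.27e-24, and a filter of 2 CPM in at least 3 libraries left the gene out. Mural cell markers, among them Abcc9 (log2 fold change -2.35) and Notch3 (-1.60), were lower in the same libraries, and their part in the level of Klf5 was not tested. Klf5 lies on the plus strand of chromosome 14, from 99298691 to 99315036 (ENSMUSG00000005148.8).

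Klf6 and Klf7 completed this group with small differences. KLF6 is a widely expressed factor induced early after tissue injury, and KLF7 is known from sensory neurons. Klf6 had 400 and 420 CPM in DPPIV- FAPs and 470 and 457 CPM in DPPIV+ FAPs. The groups did not overlap, and the change was 1.13-fold (log2 fold change 0.18, SE 0.07, edgeR adjusted p = 0.0307). That call was lost with DESeq2 (adjusted p = 0.220), without mouse in the model (0.213), with upper-quartile normalization (0.135) and with the likelihood ratio test (0.0648). Klf7 had 10.8 and 13.4 CPM in DPPIV- FAPs and 12.4 and 14.6 CPM in DPPIV+ FAPs, so the cell types overlapped (log2 fold change 0.16, SE 0.14, edgeR adjusted p = 0.395). Of its exon bases, 3196 are shared with Gm26649 on the opposite strand, and whether the counting used strand is not given in the sources used here. Klf6 lies on chromosome 13 from 5861482 to 5870394, and Klf7 on chromosome 1 from 64029447 to 64122282.

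Of the 3 factors that bind CtBP, 2 were tested, and both were called higher in DPPIV+ FAPs, against 15.9% of all genes tested. The third, Klf8, was too low to be tested and had fewer reads in DPPIV+ FAPs. KLF3 is a repressor known from red blood cells, B cells and adipocytes, in which it holds down Cebpa. Klf3 had 76.9 and 81.4 CPM in the DPPIV- libraries of mouse 1 and mouse 2, and 146 and 119 CPM in the DPPIV+ libraries. The DPPIV+ libraries were both higher, that of mouse 1 more so. The change was 1.66-fold (log2 fold change 0.73, SE 0.07, edgeR adjusted p = 3.53e-27, DESeq2 adjusted p = 1.20e-07), with log2 ratios of 0.92 and 0.54. Klf3 lies on the plus strand of chromosome 5, from 64803388 to 64832901 (ENSMUSG00000029178.14), and shares 404 exon bases with Gm20033 on the opposite strand. Klf12, a repressor outside the 10 genes, had 13.1 and 15.0 CPM in DPPIV- FAPs and 22.9 and 19.6 CPM in DPPIV+ FAPs (fitted log2 fold change 0.60, SE 0.12, edgeR adjusted p = 1.45e-06, DESeq2 adjusted p = 0.0359), with ratios of 0.81 and 0.39 in the mice. Klf3 and Klf12 each hold stretches of at least 50 bases with at least 97% identity to other transcripts, so some of their reads may be uncertain. Klf8, the third of these factors, had 22 and 12 reads in DPPIV- FAPs and 4 and 5 reads in DPPIV+ FAPs, under the filter, and was not tested. Of the genes of CtBP itself, Ctbp1 had a log2 fold change of -0.10 (edgeR adjusted p = 0.270), and Ctbp2 fell by 0.29 on the log2 scale (edgeR adjusted p = 0.00313, DESeq2 adjusted p = 0.302).

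The factors that bind Sin3a moved in both directions, and among the 6 of them 1 was called higher and 3 were called lower. The share called in either direction over all genes tested was 33.0%. KLF9 is induced by glucocorticoids and thyroid hormone. Klf9 had 240 and 294 CPM in DPPIV- FAPs and 217 and 249 CPM in DPPIV+ FAPs, so it was lower in the DPPIV+ cells of each mouse while the libraries of the cell types overlapped. Its log2 fold change was -0.19 (SE 0.07, edgeR adjusted p = 0.0155), and the call was lost with DESeq2 (adjusted p = 0.216) and without mouse in the model (adjusted p = 0.354). Klf10, the TGF-beta inducible early gene, had 71.0 and 71.0 CPM in DPPIV- FAPs and 70.4 and 59.7 CPM in DPPIV+ FAPs. The DPPIV+ library of mouse 1 was level with its partner and that of mouse 2 lay under it, and the difference was not called (log2 fold change -0.13, SE 0.07, edgeR adjusted p = 0.136), except with upper-quartile normalization (adjusted p = 0.0367). Klf13, known from T cells and from late expression of the chemokine Ccl5, had 132 and 135 CPM in DPPIV- FAPs and 154 and 140 CPM in DPPIV+ FAPs. Its groups did not overlap, yet the difference was not called (log2 fold change 0.14, SE 0.07, edgeR adjusted p = 0.0975). Klf9 lies on chromosome 19 from 23141226 to 23168134, Klf10 on chromosome 15 from 38291463 to 38300706, and Klf13 on chromosome 7 from 63886351 to 63938915.

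Of the Sin3a group outside the 10 genes, Klf14 fell most. Klf14, an imprinted gene known from adipose metabolism, had 68 and 69 reads in DPPIV- FAPs and 10 and 16 reads in DPPIV+ FAPs. The fitted level was 4.71-fold lower in DPPIV+ FAPs (log2 fold change -2.24, SE 0.32, edgeR adjusted p = 3.40e-11, DESeq2 adjusted p = 0.00178), and like Klf5 it reached the filter only through the DPPIV- libraries. With no filter its edgeR adjusted p was 4.10e-09. Klf11, a second TGF-beta inducible factor, had a log2 fold change of -0.31 (edgeR adjusted p = 0.00186, DESeq2 adjusted p = 0.336), with -0.08 in mouse 1 and -0.54 in mouse 2. Klf16 had 0.26 (edgeR adjusted p = 0.0117, DESeq2 adjusted p = 0.430), with 0.40 and 0.13. Klf15, which belongs to none of these groups and is known from glucocorticoid response and amino acid use in muscle, had 12.9 and 8.23 CPM in DPPIV- FAPs and 9.39 and 8.34 CPM in DPPIV+ FAPs. Its highest value was in the DPPIV- library of mouse 1, and the groups overlapped (log2 fold change -0.24, SE 0.16, edgeR adjusted p = 0.269). Klf15 lies on chromosome 6 from 90462576 to 90475238. Klf1, the erythroid factor, had 0 to 3 reads in a library and Klf17 had 0 or 1 read, at or under the limit of detection.

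**Figure D2:**
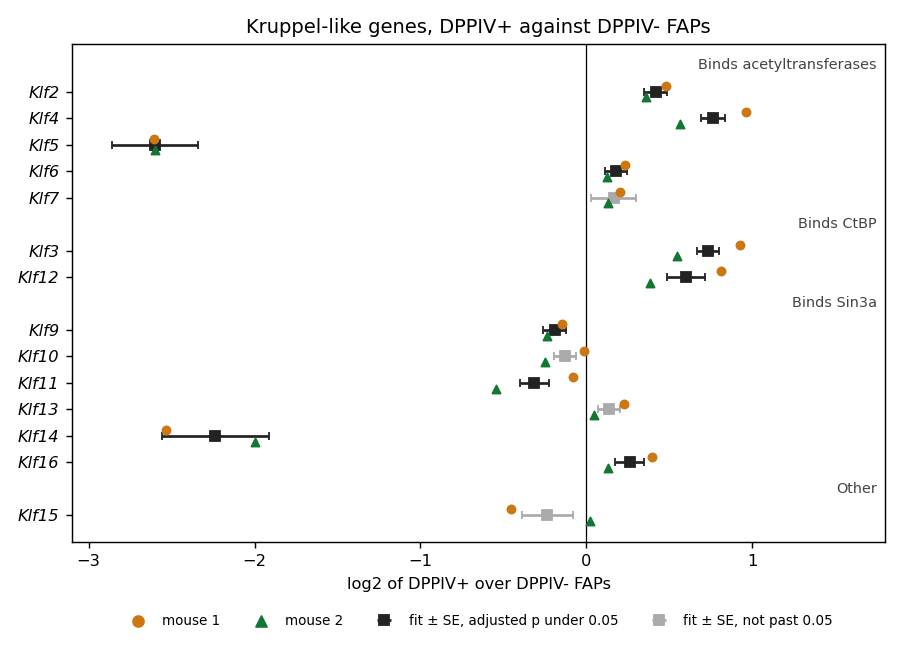
Squares give the fitted log2 fold change of DPPIV+ over DPPIV- FAPs with its SE for the 14 tested Kruppel-like genes (vertical axis), grouped by known partner, black where edgeR's adjusted p was under 0.05 and grey where not, with the log2 ratios of mouse 1 (circles) and mouse 2 (triangles). Klf5 and Klf14 lie at -2.60 and -2.24, every other gene lies between -0.31 and 0.76, and the mice fall on different sides of 0 for Klf15. The SE rests on a spread shared between genes and not on the difference between the 2 mice.

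The mice were compared in the same model, in which 1 of the 10 genes was called, near the share of 8.98% of all genes. That gene was Klf9, higher in mouse 2 by 0.25 on the log2 scale (edgeR adjusted p = 0.00493, DESeq2 adjusted p = 0.383). The log2 ratio of mouse 2 over mouse 1 for Klf9 was 0.29 in DPPIV- and 0.20 in DPPIV+ FAPs. Klf15 had the largest difference in the other direction, -0.42 (edgeR adjusted p = 0.0660), of which -0.64 was seen in DPPIV- and -0.17 in DPPIV+ FAPs. For Klf3 and Klf4 the step between the cell types was larger in mouse 1 than in mouse 2. For Klf4 the mice differed by 0.34 in DPPIV- and by -0.06 in DPPIV+ FAPs, and for Klf3 by 0.08 and by -0.30. Whether the step itself differs between the mice cannot be tested with 1 library of each kind. Within 2 mice, an exact permutation test of a single gene could not give a two-sided p under 0.5.

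Levels were compared between genes as CPM per kb of annotated exon. In DPPIV- FAPs, Klf2 (224 ± 8.59 CPM per kb, SD, n = 2) and Klf4 (208 ± 34.3) came first and overlapped over the mice. They were followed by Klf6 (93.4), Klf9 (55.4), Klf13 (17.7), Klf10 (17.0), Klf3 (7.04), Klf15 (3.78), Klf7 (1.49) and Klf5 (1.42), of which the last pair overlapped. In DPPIV+ FAPs, Klf4 (350 ± 10.1 CPM per kb) lay above Klf2 (300 ± 6.17) in both mice, and Klf5 (0.233) lay below Klf7 (1.67), with no overlap between any neighbours in the order. Klf2, Klf4 and Klf6, the 3 highest, together made up 83.4% and 83.6% of the summed level per length of the 10 genes in DPPIV- FAPs, and 88.4% and 88.1% in DPPIV+ FAPs. Klf3 thus rose 1.66-fold at a level per length far under that of Klf2 or Klf4. When the longest coding transcript was used as the length in place of all exon bases, a choice made after seeing the data, the first 4 places stayed as they were. In DPPIV- FAPs Klf10 then came before Klf13 and Klf5 before Klf7, and in DPPIV+ FAPs Klf3 came before both Klf13 and Klf10.

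**Figure D3:**
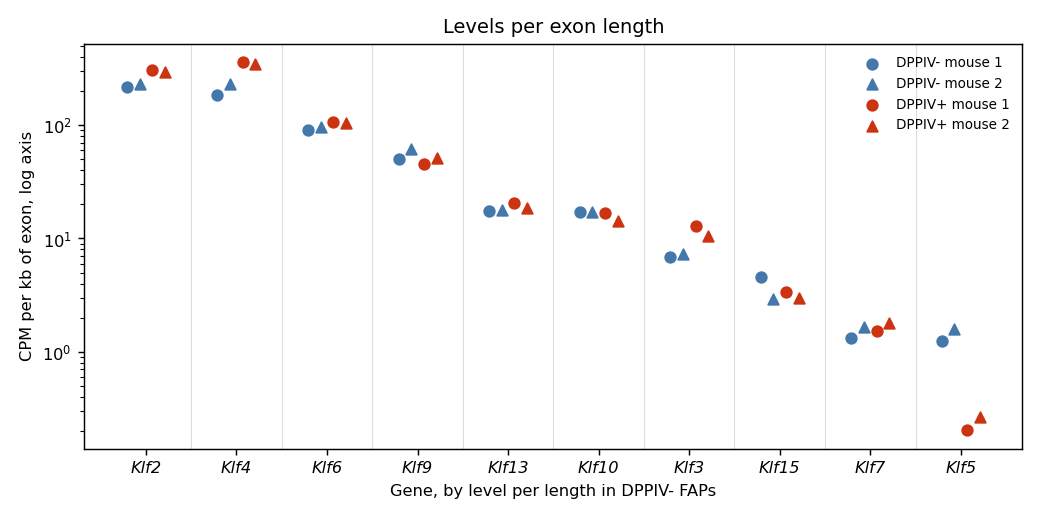
Each point is the level of 1 Kruppel-like factor in 1 library in CPM per kb of exon on a log axis, blue for DPPIV- and red for DPPIV+ FAPs, circles for mouse 1 and triangles for mouse 2, ordered by the mean in DPPIV- FAPs. Klf2 and Klf4 overlap in blue, at means of 224 and 208, and are separate in red, at 300 and 350.

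The promoters of Klf2, Klf3 and Klf4 are shown because these genes rose together. Each window holds 250 bases before and 50 bases from the RefSeq transcription start on GRCm38.p6, read 5′ to 3′ on the strand of the gene. Capitals mark the letters GGGCGG or CCGCCC (the GC box), CACCC or GGGTG (the CACCC element) and, in Klf2, the MEF2 consensus, and matches that touch run together. Klf2 is at chr8:72318812-72319111 on the plus strand, Klf3 at chr5:64803271-64803570 on the plus strand, and Klf4 at chr4:55532426-55532725 on the minus strand.
Klf2: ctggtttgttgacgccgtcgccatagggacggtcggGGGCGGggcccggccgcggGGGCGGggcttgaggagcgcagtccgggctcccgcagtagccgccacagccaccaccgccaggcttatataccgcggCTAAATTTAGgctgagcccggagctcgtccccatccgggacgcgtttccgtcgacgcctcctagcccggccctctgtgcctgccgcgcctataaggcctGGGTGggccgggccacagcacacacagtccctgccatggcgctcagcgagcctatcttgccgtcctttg
Klf3: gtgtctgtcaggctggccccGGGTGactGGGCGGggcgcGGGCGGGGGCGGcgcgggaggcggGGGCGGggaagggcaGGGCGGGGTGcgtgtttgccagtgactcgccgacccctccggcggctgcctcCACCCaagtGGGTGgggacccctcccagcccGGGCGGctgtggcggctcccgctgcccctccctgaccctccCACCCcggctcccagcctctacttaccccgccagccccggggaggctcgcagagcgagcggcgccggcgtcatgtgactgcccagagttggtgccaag
Klf4: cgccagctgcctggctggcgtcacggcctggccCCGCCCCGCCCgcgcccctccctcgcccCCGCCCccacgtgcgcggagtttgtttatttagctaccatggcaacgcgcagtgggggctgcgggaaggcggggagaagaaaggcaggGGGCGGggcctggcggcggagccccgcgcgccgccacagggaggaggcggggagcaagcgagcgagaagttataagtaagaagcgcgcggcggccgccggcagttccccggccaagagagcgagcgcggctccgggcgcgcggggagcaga

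The windows differed in which letters they held. A RefSeq window was at hand for 8 of the 10 genes, all but Klf5 and Klf10, and 32851 promoters of all genes were searched on both strands in the same way. GGGCGG was found 6 times in Klf3, 4 times in Klf4, 3 times in Klf13, 2 times in Klf2, once each in Klf6, Klf7 and Klf15, and not in Klf9, while 35.7% of all promoters held it. CACCC was found 5 times in Klf3, 3 times in Klf7, once each in Klf2, Klf9, Klf13 and Klf15, and not in Klf4 or Klf6, while 57.5% of all promoters held it. At least as many matches as in Klf3 were held by 1.35% of all promoters for GGGCGG and by 1.02% for CACCC. The GGGCGG and CACCC matches of Klf3 overlap at 1 place. The MEF2 consensus was matched in Klf2 alone of the 8, starting at position -118 from the transcription start at 0, and 3.19% of all promoters held it. CCAAT was found in Klf6, Klf9, Klf13 and Klf15, between 1 and 4 times, and in none of Klf2, Klf3, Klf4 and Klf7, while 37.4% of all promoters held it. TATAAA (13.6% of all promoters), AGAACA (19.0%), TGACGTCA (1.79%) and the CArG box (1.63%) were found in none of the 8 windows, and the shorter TGACG, which TGACGTCA contains, in 6 of 8 (20.8%). GC content ran from 58.3% in Klf7 to 76.7% in Klf3, above the median of 52.7% over all promoters, so GC-rich letters are met more often in these windows. A match is a description of letters and not a site.

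**Figure D4:**
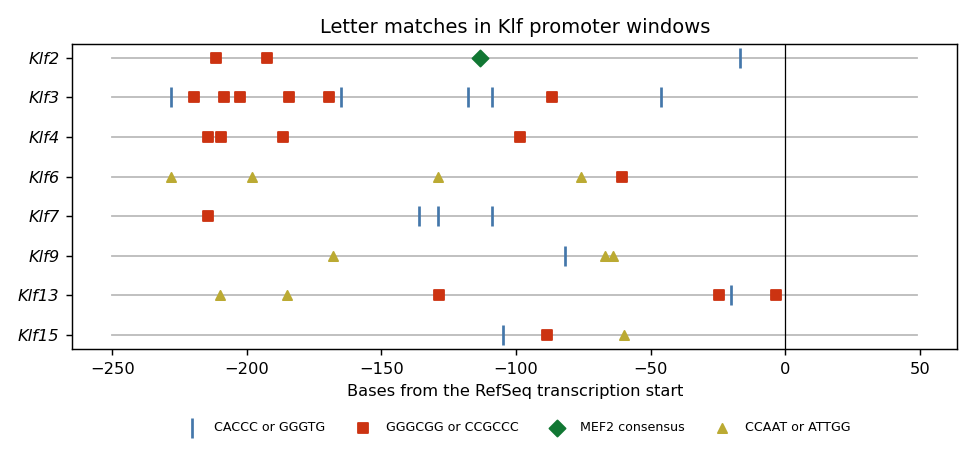
Marks show where the GC box, the CACCC element, the MEF2 consensus and CCAAT were matched in the 300 base promoter windows of 8 Kruppel-like factors, with the distance in bases from the RefSeq transcription start (vertical line at 0) on the horizontal axis. Klf3 carries 6 GC boxes and 5 CACCC elements, Klf4 carries 4 GC boxes and no CACCC element, and Klf2 alone carries a match to the MEF2 consensus.

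In endothelium, the kinases MEK5 and ERK5 switch on MEF2 factors, which drive Klf2 and Klf4 and are held back by class IIa histone deacetylases. Of 14 genes of this route, 13 were tested, 3 were higher, 2 were lower and 8 were not called, near the share of 33.0% called over all genes, and their median log2 fold change was 0.08. Hdac7 rose from 141 ± 0.858 to 297 ± 26.4 CPM (log2 fold change 1.07, edgeR adjusted p = 6.96e-54), and Hdac4 rose by 0.81 on the log2 scale (edgeR adjusted p = 2.24e-14), both deacetylases of the kind that hold MEF2 back. Hdac5, of the same kind, fell by 0.26 on the log2 scale (edgeR adjusted p = 8.50e-04, DESeq2 adjusted p = 0.235). Mef2d had 0.42 (edgeR adjusted p = 3.41e-09) and Mef2c -0.38 (edgeR adjusted p = 0.00553, DESeq2 adjusted p = 0.311). The kinase genes Map2k5 (log2 fold change -0.02, edgeR adjusted p = 0.935) and Mapk7 (0.11, edgeR adjusted p = 0.329), which encode MEK5 and ERK5, were not called.

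Of 20 cofactors and ubiquitin ligases of KLF proteins, 2 were higher, 2 were lower and 16 were not called, a smaller share than the 33.0% of all genes, and their median log2 fold change was 0.01. Both that rose were ubiquitin ligases. Smurf2 rose from 75.2 ± 1.98 to 179 ± 14.5 CPM (log2 fold change 1.25, edgeR adjusted p = 3.41e-74), and Smurf1, which marks KLF2 for breakdown, rose from 68.6 ± 2.80 to 139 ± 5.66 CPM (1.02, edgeR adjusted p = 7.60e-51). Fhl3 fell by 0.79 on the log2 scale (edgeR adjusted p = 2.14e-04, DESeq2 adjusted p = 0.0911). Sin3a (log2 fold change 0.01), Ep300 (0.01) and Crebbp (-0.03) were not called. Of the 9 Sp genes, 4 were tested and 1 was higher, Sp2 (log2 fold change 0.20, edgeR adjusted p = 0.0260), which DESeq2 did not call (adjusted p = 0.511), and 3 had no reads in any library.

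The genes of adipocyte formation around the KLF proteins split. Of 18 listed, 14 were tested, 6 were higher, 7 were lower and 1 was not called, with a median log2 fold change of -0.23. The share called over all genes tested was 33.0%. Dlk1, the preadipocyte surface protein, had 118 reads in mouse 1 and 110 in mouse 2 in DPPIV- FAPs, and 15 and 9 reads in DPPIV+ FAPs (log2 fold change -3.08, edgeR adjusted p = 8.07e-23), and reached the filter only through its DPPIV- libraries. Pparg, the nuclear receptor at the centre of the cascade, had 4.03 ± 0.786 CPM and 1.88 ± 0.374 CPM (-1.10, edgeR adjusted p = 1.29e-04, DESeq2 adjusted p = 0.128). Cebpa, its partner, fell from 40.5 ± 0.603 CPM by 0.88 on the log2 scale (edgeR adjusted p = 8.57e-22), and Lpl, the lipoprotein lipase, fell from 1210 ± 147 to 603 ± 8.98 CPM (edgeR adjusted p = 7.26e-43). Of the early factors, Cebpb rose by 0.36 on the log2 scale (edgeR adjusted p = 3.65e-07), and Cebpd was not called (0.03, edgeR adjusted p = 0.765). Ebf1 (0.70) and Ebf2 (0.56), factors of mesenchymal and brown adipose precursors, rose as well.

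KLF9 and KLF15 are known as glucocorticoid targets, and Klf2, Klf4, Klf6 and Klf10 are known to respond within minutes to stimulation and to tissue digestion. Of 15 glucocorticoid response genes, 6 were higher and 6 were lower, with a median log2 fold change of 0.11. For this list and those that follow in this paragraph, the share called over all genes tested was 33.0%. Hsd11b1, whose enzyme regenerates active glucocorticoid, fell by 1.17 on the log2 scale (edgeR adjusted p = 6.76e-65). Tsc22d3 (-0.68), Ddit4 (-0.71), Sgk1 (-0.56) and Fkbp5 (-0.41) fell too. Errfi1 rose by 0.88 (edgeR adjusted p = 7.46e-34), and Zbtb16 (0.60) and Mt2 (0.49) rose as well. Pdk4 had 0.45 (edgeR adjusted p = 1.93e-05, DESeq2 adjusted p = 0.0731). Of 26 immediate early and dissociation genes, 7 were higher, 15 were lower and 4 were not called, and the median was -0.34. Fos (log2 fold change -0.31), Jun (-0.45), Egr1 (-0.37), Nr4a1 (-0.49) and Nr4a2 (-1.26) were lower in DPPIV+ FAPs, while Fosl2 (0.52), Myc (0.45), Socs3 (0.35), Atf3 (0.30) and Dusp1 (0.23) were higher. Fosl1 had 17 and 46 reads in DPPIV- FAPs and 111 and 70 reads in DPPIV+ FAPs (1.68, edgeR adjusted p = 9.83e-10, DESeq2 adjusted p = 0.269). Between the mice, 10 of these 26 genes were called, against 8.98% of all genes, and 4 of the 10 were higher in mouse 2. The heat shock genes Hspa1a (-1.17), Hspa1b (-1.03) and Dnajb1 (-0.64) were lower in mouse 2 with edgeR and with DESeq2. They were also called lower in DPPIV+ FAPs (-0.38, -0.47 and -0.43), so these stress genes were not level across the libraries. Of 14 TGF-beta targets and pathway genes, 1 was higher and 7 were lower, with a median of -0.15. The receptor gene Tgfbr2 rose by 0.88 (edgeR adjusted p = 3.02e-33), and Tgfbi (-0.71) and Tgfb1 (-0.65) fell, beside -0.13 for Klf10 and -0.31 for Klf11. The part of the digestion, in which muscle was kept at 37 degrees before the sort, was not tested, since every library went through it.

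**Figure D5:**
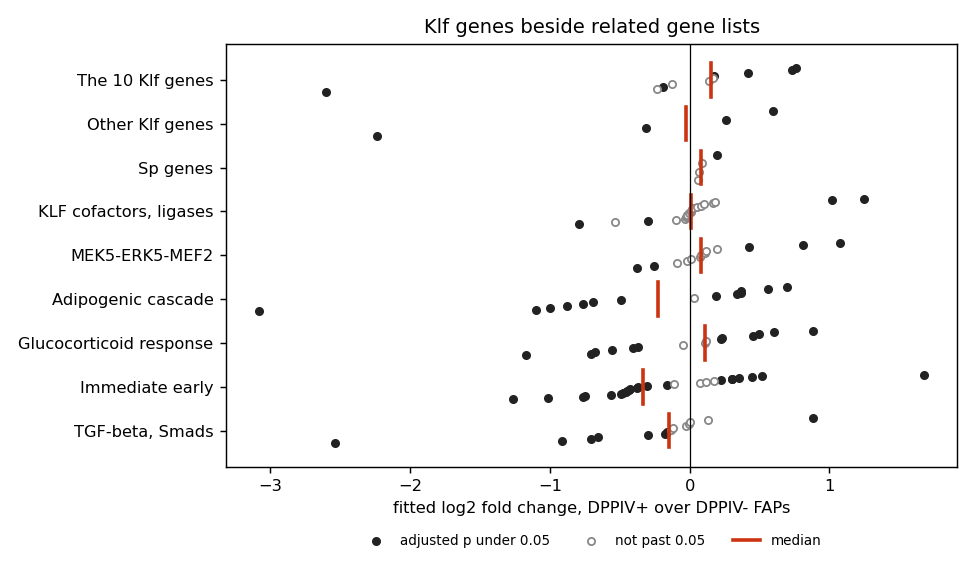
Each point is the fitted log2 fold change of 1 tested gene, DPPIV+ over DPPIV- FAPs (horizontal axis), in the list named on the vertical axis, filled where edgeR's adjusted p was under 0.05 and open where not, with red bars at the medians. The median of the 10 Kruppel-like factors lies at 0.15 and that of the immediate early genes at -0.34. Most cofactors lie near 0, with Smurf1 and Smurf2 to the right and Fhl3 (-0.79), Sap30 (-0.54) and Ctbp2 (-0.29) to the left.

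The genes most like Klf4 and Klf5 across the 4 libraries were found by the distance of log2(CPM + 1) values centred on each gene's mean. Nearest to Klf4 were Hsf2 (distance 0.0553), a heat shock factor, Ndrg4 (0.106) and Pgm3 (0.130), with fitted log2 fold changes of 0.81, 0.79 and 0.71. Nearest to Klf5 were B4galnt1 (0.0683), a ganglioside synthase, Ptk7 (0.119), a receptor of the Wnt pathways, and Unc5b (0.137), a netrin receptor, with -2.08, -2.20 and -2.02. The 1 added to CPM shrinks the step of a gene as low as Klf5, at 1.06 and 1.37 CPM in DPPIV+ FAPs. Its fitted log2 fold change was -2.60, beyond those of its neighbours. With 4 libraries such likeness reflects mainly the step between the cell types and the ratio of the mice.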

How the data were processed

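Bulk RNA was sequenced from 2 DPPIV- and 2 DPPIV+ FAP libraries. Per the study's methods, the authors demultiplexed paired-end reads with bcl2fastq 2.20, aligned them to mm10 with STAR and tallied them with RnaReadCounter. They deposited raw counts per gene symbol, with no normalization and no filter. The annotation release and strand setting are not given in the sources used here, and the library kit is NEBNext Ultra II Stranded in the labels and TruSeq Stranded in the paper.

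Counts were fitted in R 4.3.3 with edgeR 4.0.16 (TMM, quasi-likelihood F test, two-sided, no robust moderation) over 11588 genes with 2 CPM in at least 2 libraries. DESeq2 1.42.0, no mouse block, RLE and upper-quartile scaling, no filter, 2 CPM in 3 libraries, robust moderation, a likelihood ratio test and each mouse left out were alternatives. The prior degrees of freedom were infinite, so abundant genes have very small p-values. Log2 ratios per mouse used a prior count of 0.125. The pairing of libraries comes from the mouse numbers in the labels, and the differences between the mice in the 2 cell types correlated at 0.415 across genes, which are not independent. Whether anything other than the mouse was replicated is not stated, so the replicates are these 2 mice. The edgeR p-values and the SEs of the main fit use a spread shared by genes of like abundance. A gene's own spread between the mice does not enter them. Counting limits cover counting error only.

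Exon lengths, overlaps and positions came from GENCODE M21, promoters from RefSeq, and similar transcripts from BLAST 2.17.0. The test was tried on simulated counts first. Named genes are all 10 Kruppel-like factors, up to 4 genes of each list with the largest called change in the same direction in both mice, and Dpp4. A further gene under this rule is not reported here. Other genes of the lists, such as Map2k5, Mapk7, Ctbp1, Fos, Jun, Egr1, Fosl2, Myc, Socs3, Atf3, Hdac5, Sgk1, Fkbp5, Zbtb16, Mt2, Pdk4, Cebpb, Ebf1 and Ebf2, were named for their roles after their values were seen. The genes and the lists were chosen with earlier results of these data known, and Egr2 and Dusp1 stand in more than 1 list. Of the listed symbols, Klf18 and Ccn2 were not matched.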

Additional observations from a re-analysis of the deposited data

How the results depend on the processing

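Klf2, Klf3 and Klf4 stayed higher past the threshold under the 8 alternatives with a test, and Klf5 stayed lower under the 7 in which it was tested. The number of Kruppel-like factors called lower was 1 with DESeq2, 1 with no replicate block, where mouse leaves the model and the pairing is not used, and 1 with 2 CPM in at least 3 libraries, a filter that removes Klf5 and Klf14. With upper-quartile normalization 3 were higher and 3 were lower, and the median of all genes was -0.045. Of the other Klf genes, 1 was higher with DESeq2 and with no replicate block, and 1 was lower with DESeq2, with no replicate block and with the stricter filter. Of the Sp genes, 0 were higher with DESeq2, with no replicate block and with upper-quartile normalization. Between the mice, 0 of the 10 genes were called with DESeq2, where the 1 called by edgeR was Klf9. The cause of these changes was not tested except for the stricter filter. Leaving out a mouse gave values with no test, from 0.36 to 0.48 for Klf2, 0.54 to 0.92 for Klf3, 0.56 to 0.96 for Klf4 and -2.60 in each case for Klf5 on the log2 scale, and only Klf15 of the 10 had both signs. With the longest coding transcript as the length, chosen after seeing the data, Klf10 took place 5, Klf13 place 6, Klf5 place 9 and Klf7 place 10 in DPPIV- FAPs, and Klf3 took place 5, Klf13 place 6 and Klf10 place 7 in DPPIV+ FAPs. No call changed direction past the threshold.

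Klf1, Klf8 and Klf17 had too few reads to be tested, the DPPIV+ libraries of Klf5 and Klf14 held 10 to 25 reads each, and with 2 mice the spread of a single gene is hardly measured. For all genes, DESeq2 called 923 higher and 995 lower where edgeR called 1837 and 1989, and without the block edgeR called 1001 and 1119.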
